A study of Homo sapiens with 6 samples.

Results

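TXNIP, its 4 arrestin-domain relatives ARRDC1 to ARRDC4, and the glucose-responsive transcription factors MLXIP, MLXIPL and MLX are 8 of the 60569 gene names in an RNA-sequencing table of MDA-MB-453 cells. They were taken by symbol, each with 1 row, and were chosen by a reading of earlier results of the same comparison, so the difference between the groups is given for them as a description with no test. MDA-MB-453 is an established human breast cancer cell line. One group received a construct for overexpression of ZNF207 (3 libraries) and the other a control vector (3 libraries), and every library therefore comes from transfected cells. The labels give 3 biological replicates per group, and do not give the time after transfection, the promoter or isoform of the construct, or whether the cells were a pool or a clone.

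The 5 alpha-arrestins share the fold of the visual and beta-arrestins and carry PPxY motifs that recruit NEDD4-family ubiquitin ligases to membrane proteins. TXNIP also binds reduced thioredoxin through a disulfide, and it promotes removal of glucose transporters from the cell surface. MLXIP (MondoA) and MLXIPL (ChREBP) bind DNA as dimers with MLX, enter the nucleus when phosphorylated glucose rises, and act on carbohydrate response elements in which a pair of E-box-like parts are set 5 bases apart. TXNIP and ARRDC4 are the best-known direct targets of MondoA, so a rise or fall of glucose entry is known to move both.

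ZNF207, a zinc finger protein of the spindle checkpoint, stood at 885, 786 and 750 FPKM with its construct, against 69.2, 67.0 and 63.7 FPKM with the control vector, so the labels and the columns fit each other (limma adjusted p = 4.03e-09). FPKM counts fragments relative to transcript length and to all mapped fragments of that library. The libraries summed to between 589360 and 612711 FPKM, with read depth unknown. Whole libraries did not separate fully by group. Of all pairs, ZNF207 replicate 2 and control replicate 3 correlated most (r = 0.9912 over tested genes), narrowly above control replicates 1 and 3 (0.9908). The lowest r, 0.9845, was also between the groups, for ZNF207 replicate 3 and control replicate 2. All 9 luminal markers of the line, such as KRT8 and GATA3, were at 1 FPKM or more in every library. Their sum was lower with the construct, 6495 to 6580 FPKM, against 6879 to 7222 FPKM with the vector. Of 12 fibroblast, leukocyte and endothelial markers only COL1A1 exceeded 1 FPKM, with 7.98 to 11.3 FPKM, and the others reached at most 0.490 FPKM. In bulk RNA, fewer cells of a type and less RNA per cell cannot be told apart.

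The promoters are shown first because the best-known control of TXNIP acts there. RefSeq windows (GRCh38.p14) of 250 bases before to 50 after a start site were held for all 8 genes, 11 windows in all. They were searched on both strands for the paired element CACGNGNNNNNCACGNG, for the single E-box CACGTG and for CCAAT, a box bound by NF-Y. One TXNIP window of the 2 held the paired element at -88 to -72, with a CCAAT at -105 and another on the opposite strand at -140. Of 35116 windows in the table, 0.057% held the paired element, 7.26% the single E-box and 34.6% a CCAAT. Among the 8 genes the paired element was matched for TXNIP and for no other. This pattern has both parts in the same orientation, and a pattern with parts in opposite orientation was not searched. In the sequences printed here, 5′ to 3′ in the direction of the gene, capitals mark these 3 motifs, and positions count from the RefSeq start. The TXNIP stretch (chr1:145996620-145996749, minus strand, -170 to -41) carries the paired element, the ARRDC4 stretch (chr15:97960483-97960652, plus strand, -220 to -51) a single E-box and 3 CCAAT boxes, and the MLX stretch (chr17:42567020-42567069, plus strand, -80 to -31) a single E-box and 1 CCAAT box.
TXNIP: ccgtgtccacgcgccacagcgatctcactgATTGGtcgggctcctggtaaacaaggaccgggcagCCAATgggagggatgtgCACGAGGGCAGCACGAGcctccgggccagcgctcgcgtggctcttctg
ARRDC4: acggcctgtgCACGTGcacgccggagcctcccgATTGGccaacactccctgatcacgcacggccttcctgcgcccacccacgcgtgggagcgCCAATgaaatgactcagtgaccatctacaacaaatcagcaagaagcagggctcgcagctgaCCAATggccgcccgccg
MLX: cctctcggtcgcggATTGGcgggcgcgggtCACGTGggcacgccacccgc

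**Figure D1:**
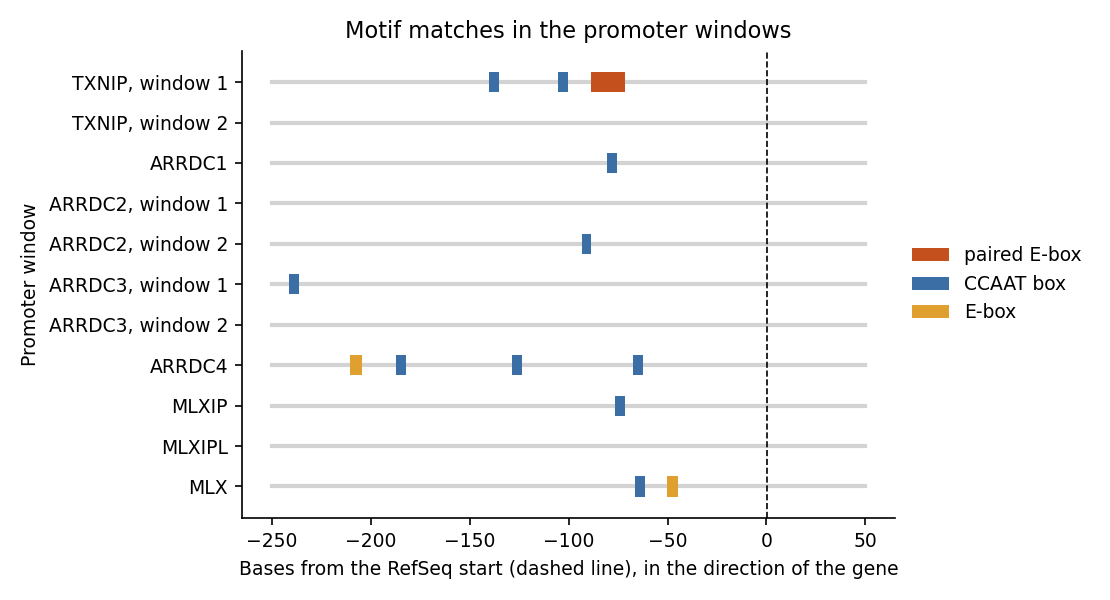
Motif matches in the 11 promoter windows of the 8 genes, by distance in bases from the RefSeq start (dashed line). Coloured bars are matches on either strand. The paired E-box element is in a TXNIP window alone, and single E-boxes are in the ARRDC4 and MLX windows.

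A match is a description of these letters and no evidence of binding, and the window may leave out elements farther away. The single E-box is also bound by MYC with MAX. The CCAAT box was matched in windows of TXNIP, ARRDC1, ARRDC2, ARRDC3, ARRDC4, MLXIP and MLX, and in none for MLXIPL. ARRDC4 was the member with the most matches, 1 E-box at -210 to -205 and CCAAT boxes at -187, -128 and -67. Both a single E-box and a CCAAT, as in ARRDC4 and MLX, were held by 2.33% of all windows.

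TXNIP was the highest of the 8 in all libraries and stood lower with the ZNF207 construct. It had 597, 602 and 629 FPKM in ZNF207 libraries, against 720, 727 and 718 FPKM in control libraries. The 3 ZNF207 values lie close together and below every control value, with a gap of 89.1 FPKM between the groups. The means were 610 ± 17.3 FPKM with the construct and 722 ± 4.78 FPKM with the vector (SD, n = 3 each), a ratio of 0.844 and a difference of -0.24 in log2(FPKM + 1) (SE 0.05). TXNIP ranked 147th to 150th of all gene names in the ZNF207 libraries and 119th to 134th in the controls, so it stayed among abundant transcripts in both. The gene lies on chromosome 1 (145992435 to 145996600, minus strand, GENCODE v29 on GRCh38), its locus is shared by no other row of the table, and 0 of its 3708 words of 50 bases occur in transcripts of another gene.

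**Figure D2:**
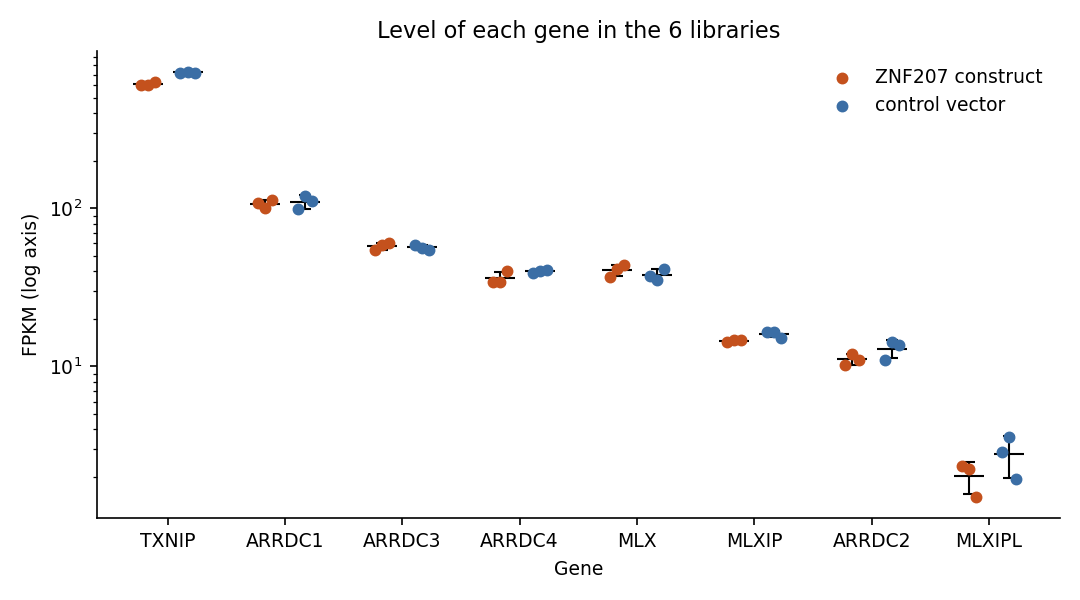
FPKM (log axis) of each gene in the 3 ZNF207 libraries (left) and the 3 control libraries (right), with the mean and SD. TXNIP stands at 597 to 629 FPKM against 718 to 727 FPKM, far above the other genes, and MLXIPL is the lowest of the 8.

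ARRDC4, the closest relative of TXNIP in glucose control, had 34.4, 34.2 and 39.9 FPKM in ZNF207 libraries, against 38.8, 39.9 and 40.9 FPKM in control libraries. ZNF207 replicates 1 and 2 are below all controls, while replicate 3 lies within the control range, so the groups overlap. The means were 36.2 ± 3.20 FPKM with the construct and 39.9 ± 1.05 FPKM with the vector (SD, n = 3 each), a log2 difference of -0.14 (SE 0.07). Within the ZNF207 group, replicate 3 was the highest for ARRDC4 and for TXNIP alike. Within the controls, replicate 3 was the highest for ARRDC4 but the lowest for TXNIP. The ratio of TXNIP to ARRDC4 within a library is not moved by a single factor applied to that library, but quantile scaling can move it. In the deposited FPKM it was 17.4, 17.6 and 15.8 with the ZNF207 construct, against 18.6, 18.2 and 17.6 with the control vector. These ratios overlap, if narrowly: ZNF207 replicate 2 lay just above control replicate 3.

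ARRDC3 sorts integrin beta-4 for degradation and is described as a suppressor of breast cancer growth. It had 54.3, 58.3 and 60.2 FPKM in ZNF207 libraries, against 58.9, 56.1 and 54.7 FPKM in control libraries. The groups are interleaved, with means of 57.6 ± 2.99 FPKM with the construct and 56.6 ± 2.15 FPKM with the vector (SD, n = 3 each) and a log2 difference of 0.02 (SE 0.06). The TXNIP to ARRDC3 ratio was 11.0, 10.3 and 10.5 with the construct, against 12.2, 13.0 and 13.1 with the vector. Those ratios do not overlap. As ARRDC3 itself hardly differed between the groups, the ratio restates the TXNIP difference and is no separate evidence for it.

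ARRDC1, which recruits TSG101 to the plasma membrane for budding of microvesicles, was the second most abundant member. It had 107, 99.7 and 112 FPKM in ZNF207 libraries, against 98.3, 120 and 112 FPKM in control libraries. All ZNF207 values fall within the control range, with a log2 difference of -0.04 (SE 0.08). ARRDC2, another plasma membrane and endosome adaptor of the family, was the lowest alpha-arrestin among the members. It had 10.2, 12.0 and 11.0 FPKM in ZNF207 libraries, against 11.0, 14.3 and 13.6 FPKM in control libraries. Control replicate 1 lay among the ZNF207 values and the other 2 controls above them, and the means were 11.1 ± 0.901 FPKM with the construct and 13.0 ± 1.73 FPKM with the vector (SD, n = 3 each; log2 difference -0.20, SE 0.11). ARRDC5, the last alpha-arrestin of the human genome, was listed at 0 in all 6 libraries. TXNIP took 74.3% ± 0.421 of the summed FPKM of TXNIP and ARRDC1 to ARRDC4 with the construct and 76.7% ± 0.873 with the vector (SD, n = 3 each), and the 2 groups do not overlap. As TXNIP makes up most of that sum, the share largely restates the TXNIP difference and is no separate evidence for it.

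MLXIP (MondoA), the glucose sensor that predominates in many non-liver cells, had 14.2, 14.6 and 14.7 FPKM in ZNF207 libraries, against 16.4, 16.5 and 15.2 FPKM in control libraries. The groups do not overlap, but the gap is 0.425 FPKM, since control replicate 3 lies near the ZNF207 values. The means were 14.5 ± 0.288 FPKM with the construct and 16.0 ± 0.730 FPKM with the vector (SD, n = 3 each), a log2 difference of -0.13 (SE 0.07). The ratio of TXNIP to MLXIP was 42.1, 41.1 and 42.7 with the construct, against 43.9, 44.2 and 47.4 with the vector. Both genes were lower in ZNF207 libraries, and TXNIP by the larger share.

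MLXIPL (ChREBP), the paralog known from liver and fat, had 2.34, 2.24 and 1.50 FPKM in ZNF207 libraries, against 2.87, 3.60 and 1.94 FPKM in control libraries. The groups overlap and the spread is wide, with coefficients of variation of 22.5% with the construct and 29.7% with the vector, where TXNIP had 2.83% with the construct and 0.662% with the vector. Its log2 difference of -0.32 (SE 0.19) is the least precise of the 8. It was -0.17 without control replicate 2, -0.19 without ZNF207 replicate 3 and -0.49 without control replicate 3. MLXIP exceeded MLXIPL by 6.08, 6.54 and 9.81 times in the ZNF207 libraries and by 5.72, 4.57 and 7.82 times in the controls, a comparison of levels per length. MLX, the partner of both, had 36.7, 41.5 and 43.6 FPKM in ZNF207 libraries, against 37.3, 35.1 and 41.4 FPKM in control libraries. Its groups overlap as well (log2 difference 0.09, SE 0.08). In each group replicate 3 held the lowest MLXIPL and the highest MLX value.

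**Figure D3:**
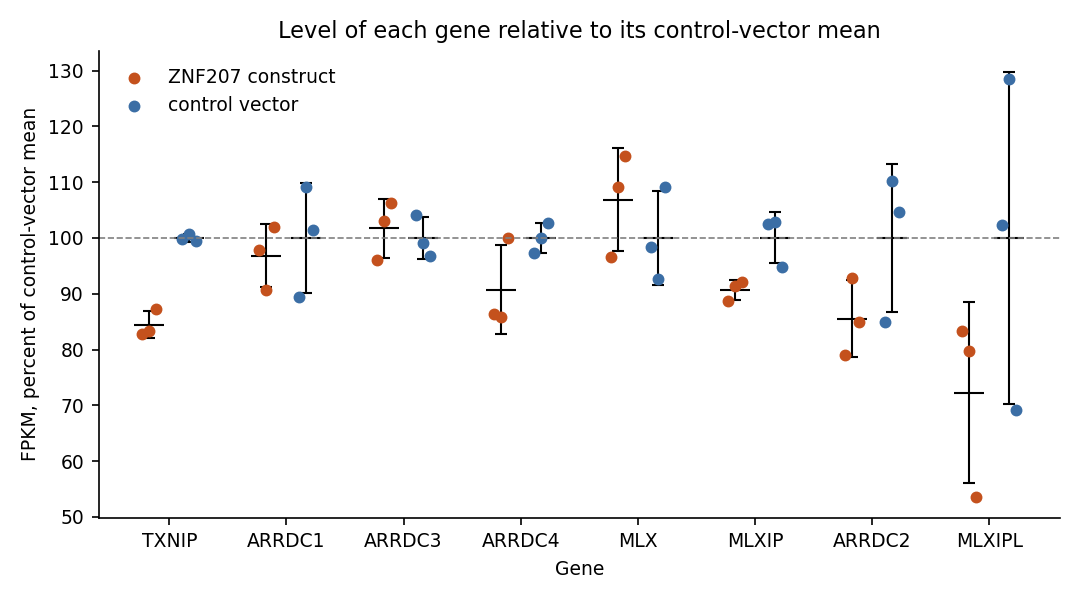
FPKM of each gene in each library as a percent of its own control mean, with the ZNF207 libraries left of the controls and bars for the mean and SD. TXNIP shows the widest gap between groups, MLXIP a narrow one, and the other 6 genes overlap between groups.

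In level per length, the order in the controls was TXNIP, ARRDC1, ARRDC3, ARRDC4, MLX, MLXIP, ARRDC2 and MLXIPL. With the construct it was the same but for ARRDC4 and MLX, which changed places and whose ranges overlap in both groups. Within libraries, MLX was above ARRDC4 in all 3 ZNF207 libraries, and ARRDC4 was above MLX in 2 of the 3 controls. Each other neighbouring pair had ranges that do not overlap within either group. TXNIP exceeded ARRDC1, the next gene, by 5.73 times in ZNF207 libraries and by 6.57 times in controls.

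Of the 8 genes, 6 had a mean below that of the controls on the log2 scale and 2, ARRDC3 and MLX, above it, with a median difference of -0.14. The median over all 13185 tested genes was -0.01. The groups were apart for 2 of 8, TXNIP and MLXIP, both lower. Over all tested genes, 10.4% were apart in the lower direction and 7.61% in the higher. Since the comparison itself entered the choice of these genes, nothing is read from that count. TPM, median-of-ratios and quantile scaling left the sign of each of the 8 differences and the separation of TXNIP and MLXIP as they were. The signs of ARRDC1 and ARRDC3, both near 0, changed when 1 library was left out, with ranges of -0.12 to 0.02 and -0.01 to 0.07. Single libraries also moved the size of other differences by over 1.5 times. The MLX difference was 0.16 without ZNF207 replicate 1 or control replicate 3, and 0.04 without ZNF207 replicate 3 or control replicate 2. The ARRDC2 difference was -0.31 without control replicate 1 and -0.13 without control replicate 2, and that of ARRDC4 was -0.21 without ZNF207 replicate 3.

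Some values may rest in part on sequence that also lies in another gene, on the same or the opposite strand. For MLX, 16.9% of the words of 50 bases in its transcripts are antisense to transcripts of another gene, for ARRDC2 7.94% and for ARRDC3 1.97%, and no source used here gives the strand setting of the libraries. The antisense genes ARRDC1-AS1 and ARRDC3-AS1 stood at 3.36 ± 0.338 and 1.78 ± 0.257 FPKM with the construct and at 3.29 ± 0.643 and 1.54 ± 0.424 FPKM with the vector (SD, n = 3 each). PSMC3IP, which shares the listed locus of MLX, stood at 10.4 ± 0.644 FPKM with the construct and 11.9 ± 0.907 FPKM with the vector (SD, n = 3 each). The listed locus was shared with 9 other rows for ARRDC1, 2 each for ARRDC3 and MLX, and 1 each for ARRDC2 and MLXIPL. Words shared with another gene on the same strand came to at most 2.08%, for ARRDC1. Their part in these values was not tested.

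Around the members, 95 genes in 8 lists were followed, 77 of them tested. By limma, with p adjusted over the whole table (Benjamini-Hochberg), 0 rose and 1 fell, GPI, and 76 did not pass the test. Raw p was below 0.05 for 6 higher and 13 lower genes of the 77, and for 5.08% of all tested genes in the higher and 7.03% in the lower direction, the background also for the counts by list. Over all tested genes 0.0531% were called higher and 0.159% lower. The lists were written with earlier results of these data known.

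GPI, glucose-6-phosphate isomerase, uses the same hexose phosphate that activates MondoA and ChREBP. It had 440, 429 and 378 FPKM in ZNF207 libraries, against 588, 626 and 582 FPKM in control libraries, and every ZNF207 value is far below the controls. The log2 difference was -0.53 (SE 0.07, limma adjusted p = 0.0196). The call was lost without ZNF207 replicate 3 (adjusted p = 0.0654), without control replicate 2 (0.0920) or control replicate 3 (0.0657), without a filter (0.178) and without a variance trend (0.140). In its list of glucose phosphorylation, hexosamine and AMPK genes, 0 of 14 tested rose, 1 fell and 13 did not pass (raw p below 0.05 for 2 higher, 3 lower), and the median was -0.05.

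Of 17 glucose-responsive targets credited to ChREBP or MondoA, 11 were tested. Among these 8 had an estimate below 0, as did 52.4% of all tested genes, and 0 rose and 0 fell by the limma test (raw p below 0.05 for 1 higher, 4 lower), with a median of -0.13. PKLR, G6PC1, GPD1, FGF21 and SLC2A2, targets best known from liver, were among those that did not reach the filter of 1 FPKM in 3 libraries. PFKFB3, which makes fructose 2,6-bisphosphate and also responds to hypoxia, had 72.2, 78.2 and 60.2 FPKM in ZNF207 libraries, against 105, 127 and 96.5 FPKM in control libraries (log2 difference -0.63, SE 0.11, limma adjusted p = 0.0688). SCD, the stearoyl-CoA desaturase, had 839, 855 and 852 FPKM in ZNF207 libraries, against 953, 991 and 1009 FPKM in controls (-0.21, SE 0.05, limma adjusted p = 0.127). Both genes are apart between the groups, as TXNIP is, and neither passed the adjusted threshold.

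Of 9 cargo proteins and partners of alpha-arrestins, 7 were tested and 0 passed (raw p below 0.05 for 1 higher, 1 lower, median -0.14). SLC2A1 encodes GLUT1, the transporter that TXNIP and ARRDC4 are known to take off the membrane. It had 208, 224 and 194 FPKM in ZNF207 libraries, against 248, 285 and 244 FPKM in control libraries. The groups do not overlap (log2 difference -0.31, SE 0.07, limma adjusted p = 0.131). IFIH1 encodes the RNA sensor MDA5, an interaction partner of ARRDC4, and had 140, 129 and 135 FPKM in ZNF207 libraries, against 117, 107 and 124 FPKM in control libraries (0.22, SE 0.06, limma adjusted p = 0.210). Transcripts of SLC2A4, which encodes the transporter GLUT4, were below the filter.

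The E-box network that MLX joins had 9 of 10 genes tested and 0 that passed (raw p below 0.05 for 0 higher, 1 lower, median -0.05). MXI1, a MAX partner that opposes MYC, had 33.3, 34.1 and 34.9 FPKM in ZNF207 libraries, against 42.0, 42.8 and 44.9 FPKM in control libraries (log2 difference -0.33, SE 0.06, limma adjusted p = 0.0603). Its groups are well apart and narrow. MNT, a repressor that can pair with MAX or MLX, had 8.62, 8.57 and 7.80 FPKM in ZNF207 libraries, against 11.8, 10.3 and 8.18 FPKM in controls, with overlap (-0.24, SE 0.12, limma adjusted p = 0.479). MYC itself averaged 136 FPKM with the construct and 141 FPKM with the vector.

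Of 13 tested genes of the thioredoxin system 0 passed (raw p below 0.05 for 0 higher, 2 lower, median -0.03). TXN, the thioredoxin that TXNIP binds, averaged 256 FPKM with the construct and 254 FPKM with the vector, below TXNIP itself in both groups. The peroxiredoxins PRDX2 and PRDX4, which reduce peroxides, had log2 differences of -0.15 (SE 0.05, limma adjusted p = 0.291) and -0.22 (SE 0.09, limma adjusted p = 0.340). PRDX2 stood at 713 ± 14.2 FPKM with the construct and 793 ± 34.5 FPKM with the vector, and PRDX4 at 141 ± 6.68 FPKM with the construct and 166 ± 21.5 FPKM with the vector (SD, n = 3 each). NLRP3, an inflammasome gene whose product TXNIP can bind, did not reach the filter.

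Of the NEDD4-family ligases 8 of 9 were tested and 0 passed (raw p below 0.05 for 1 higher, 0 lower, median 0.07). ITCH, a ligase of TXNIP, averaged 21.0 FPKM with the construct and 18.5 FPKM with the vector. WWP2 had a log2 difference of 0.14 (SE 0.07, limma adjusted p = 0.474). HECW2 had 4.06, 1.82 and 2.67 FPKM in ZNF207 libraries, against 1.34, 1.70 and 1.94 FPKM in control libraries, with overlap (0.50, SE 0.21, limma adjusted p = 0.385).

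Other arrestin-fold proteins had 6 of 9 tested and 0 that passed (raw p below 0.05 for 0 higher, 0 lower, median -0.03). The retromer subunit VPS26A averaged 60.7 FPKM with the construct and 55.0 FPKM with the vector (log2 difference 0.14, limma adjusted p = 0.455) and the retriever subunit VPS26C 16.6 FPKM with the construct and 18.4 FPKM with the vector (-0.14, limma adjusted p = 0.496). All 9 other transcription factors linked to TXNIP were tested and 0 passed (raw p below 0.05 for 1 higher, 2 lower, median -0.11). NR3C1, the glucocorticoid receptor gene, stood at 29.4 ± 0.234 FPKM with the construct and 33.0 ± 1.42 FPKM with the vector (SD, n = 3 each), with a limma adjusted p of 0.321. VDR, the vitamin D receptor gene, stood at 18.1 ± 0.934 FPKM with the construct and 15.4 ± 0.987 FPKM with the vector (SD, n = 3 each), with a limma adjusted p of 0.291. NFYA, NFYB and NFYC, the subunits that bind CCAAT, averaged 27.5, 30.2 and 20.2 FPKM with the construct and 28.1, 32.7 and 20.5 FPKM with the vector.

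**Figure D4:**
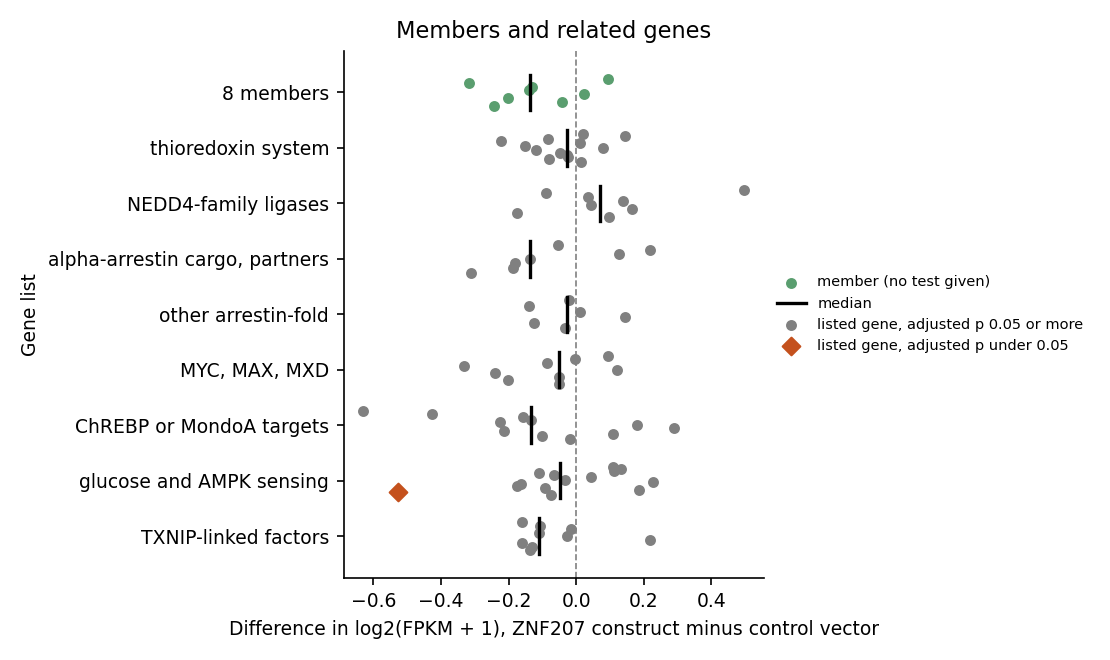
Difference in log2(FPKM + 1), ZNF207 construct minus control vector, of the 8 members and of the 77 tested genes of the 8 lists. Each point is a gene, black lines are medians, and the diamond is GPI, with a difference of -0.53, the listed gene that passed the adjusted threshold.

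The paired element found before TXNIP, with both parts in the same orientation, was in windows of 20 genes. Of these, 14 genes other than TXNIP were tested. This search was made with the values known, and no test is given. Of these 14, 7 had a lower and 7 a higher mean, with a median of -0.01 that equals the median of all tested genes to 2 decimals. P4HA1, a collagen prolyl hydroxylase, stood at 118 ± 6.37 FPKM with the construct and 167 ± 4.79 FPKM with the vector (SD, n = 3 each). GFPT1, which opens the hexosamine pathway from fructose 6-phosphate, stood at 34.0 ± 1.98 FPKM with the construct and 29.8 ± 2.24 FPKM with the vector (SD, n = 3 each). Its groups overlap. RCN3, a calcium-binding protein of the endoplasmic reticulum, averaged 1.35 FPKM with the construct and 3.06 FPKM with the vector.

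The genes most like TXNIP were searched among 9782 tested genes with a mean of 5 FPKM or more, by Pearson r of log2(FPKM + 1) over the 6 libraries. The 5 highest were FN3KRP (r = 0.994), a kinase of glycated protein repair, ANKRD27 (0.991), an endosomal trafficking adaptor, LINC00963 (0.986), a long noncoding RNA, NT5DC2 (0.984) and CRKL (0.983), a signalling adaptor. LINC00963 had 70.9, 72.2 and 72.1 FPKM in ZNF207 libraries, against 84.7, 85.1 and 83.9 FPKM in control libraries, a ratio of means of 0.848, against 0.844 for TXNIP. The 5 lowest were ZNF207 (-0.986), LAMP3 (-0.985), AC093001.1 (-0.985), DIMT1 (-0.984) and CXCL8 (-0.982). As the TXNIP values of the groups do not overlap, such an r takes in the group difference, and 225 genes had an r above 0.9 and 115 below -0.9. Over deviations from the group means, where the group difference is removed, the 5 highest were OSBPL11 (0.997), AC245060.4 (0.996), AZI2 (0.996), HDDC3 (0.995) and NAA20 (0.994). The 2 rankings name no gene in common, and with 6 libraries both are descriptions.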

How the data were processed

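The table deposited by the authors holds FPKM values for 60658 rows and 60569 gene names, 1 column per library. Bowtie2, RSEM 1.3.1, DESeq2 1.4.5 and hg38 are named, per the submitters' processing notes. No source used here gives their roles, the annotation, any filter or the strand setting. Abbreviated column names were matched to the sample titles by group name and final digit, and values of single replicates rest on that match. For a repeated gene name, only its highest row by mean FPKM entered.

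Genes with 1 FPKM or more in at least 3 libraries (13185) were tested as log2(FPKM + 1), which understates changes of low genes, with limma 3.58.1 in R 4.3.3 (mean-variance trend, two-sided, Benjamini-Hochberg over all tested genes, threshold 0.05). The procedure was tested on simulated data with planted changes all larger than the TXNIP difference, so that test does not cover changes as small as this. Read depth could not be recovered: for any 2 libraries the commonest ratio of low values covered at most 0.566% of low genes. At most 8 tested genes had identical values in any pair.

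The members, gene lists and tests were chosen with earlier results of these data known. Named genes are the 8 members, ZNF207, in each list the called genes or the 2 with the smallest p, and the genes most and least like TXNIP; others (COL1A1, ARRDC5, MYC, TXN, ITCH, the NF-Y genes, P4HA1, GFPT1, RCN3 and genes named as untested or overlapping) were named after their values were seen. Alternatives were another pseudocount, filter, scaling or variance model, a replicate block and each library left out. Most listed genes are counted in their lists and not named.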

Additional observations from a re-analysis of the deposited data

How the results depend on the processing

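The TXNIP difference was -0.24 on the log2 scale and lay between -0.27 and -0.19 over 11 alternatives, all negative. Of these, the replicate block cannot move the difference, since each group has 1 library of each number. The difference moved by more than its spread with quantile scaling (-0.19). The number of genes changed among all tested, 28, was 4 without a filter, 64 with the filter at 5 FPKM, 18 with median-of-ratios scaling and 5 without a variance trend, and ran from 7 to 33 when 1 library was left out. Among the other pathway genes the count, 1, was 0 without a filter, 0 without a variance trend, 3 with the filter at 5 FPKM (GPI, MXI1 and PFKFB3), and 0 to 1 with single libraries left out. With the replicate number as a block (replicate block), 145 of all tested genes and 5 pathway genes passed. The labels give a replicate number and do not state a pairing, and whether the libraries were paired was not tested. Deviations of same-numbered libraries correlated at 0.136, 0.00881 and 0.175, and those of differently numbered libraries at -0.209 to 0.0705. ZNF207 replicates 1 and 3 correlated best with the control of their own number. ZNF207 replicate 2 did not, and correlated best with control replicate 3 (0.0482). The causes of these shifts were not tested. Only 3 libraries per group and unknown depth limit the precision, and MLXIPL, near 2 FPKM, is the least certain member.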
